A study of Mus musculus with 17 samples.

Results

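Genes that copy DNA, mend its breaks and exchange it between homologous chromosomes were examined in mouse oocytes that lack EHMT2 (also called G9a), a methyltransferase of histone H3 lysine 9. Members were taken by name from the table of read counts per gene. They were the protein-coding genes whose symbols begin with the prefixes of the RAD, Fanconi anaemia, XRCC, BRCA, mismatch repair, excision repair, polymerase, MCM, ORC, clamp loader, RPA, PARP, ligase, topoisomerase, SMC, STAG, synaptonemal complex, HORMA domain, MEI, Tudor domain and PIWI families. The rule found 18 of the 2615 genes in the table, of which 2259 were protein-coding.

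RNA was sequenced from 3 libraries of control oocytes (replicates 1, 2 and 6) and 3 libraries of Ehmt2GKO oocytes (replicates 3, 4 and 5). All came from C57BL/6J females 8 weeks old. Control females were Ehmt2(flox/flox), so that both groups carried the floxed alleles, and Ehmt2GKO females were Ehmt2(flox/flox); Gdf9-Cre. The Gdf9 promoter drives Cre in oocytes from the primordial follicle stage onwards, and the comparison asks which transcripts differ once Ehmt2 is deleted there. Per the labels both groups were MII oocytes, while the study's text calls them superovulated oocytes. The study also reports that few Ehmt2GKO oocytes completed meiosis I and that their homologous chromosomes failed to separate. The groups may therefore differ in meiotic stage. Its part in the differences below was not tested and cannot be told apart from that of the deletion. Nothing in the sources says that the libraries came from separate females, so p-values measure only the spread between these libraries, which may be technical. Bulk libraries also cannot tell fewer oocytes with a transcript apart from less of it in each oocyte.

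Before a cell divides, the MCM helicase is loaded at replication origins, polymerases copy the DNA and topoisomerases release its twist. In meiotic prophase, programmed double-strand breaks are made and repaired by strand exchange with the homologous chromosome while the synaptonemal complex holds the homologues together. In female mice these steps take place before birth, and the growing oocyte later stores a large pool of messenger RNA that serves meiotic maturation and the first divisions of the embryo.

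All 2615 genes of the table carry a deposited adjusted p below 0.05 for the same contrast. A difference between the groups was therefore a condition for entering the table, every p-value here is a description of listed genes, and genes that are not listed were not analysed here. Ehmt2 itself is one of these, so the labels were not checked by the deleted gene. The libraries held 4060653 to 4258350 reads over the listed genes. The 18 genes took 0.535 to 0.621% of these reads. How deeply the libraries were sequenced over all genes cannot be read from the table. Of 17 oocyte markers, 6 were listed (Zp1, Zp2, Zp3, Padi6, Mos and Nlrp5), with summed normalized counts of 42384 to 51464 in the control and 51432 to 53128 in the Ehmt2GKO libraries. Nlrp5 is the largest part of this sum, and the markers went both ways. Zp3 fell (log2 fold change -1.05), Zp1 (-0.86) and Zp2 (-0.40) were lower, and Mos (0.51), Padi6 (0.48) and Nlrp5 (0.42) were higher. Of 24 cumulus and granulosa cell markers, Kitl and Ptgs2 were listed, and Ptgs2 had 6, 10 and 14 reads in the control libraries against 107, 74 and 59 in the Ehmt2GKO libraries. Kitl went the other way, with 368, 325 and 335 reads against 225, 254 and 188, a log2 fold change of -0.63. The summed normalized counts of these markers were 336 to 384 in the control and 246 to 335 in the Ehmt2GKO libraries. None of 8 blood and immune markers was listed. The part of other cells in the results below was not tested.

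The annotation holds 163 protein-coding genes with such names, and the 18 in the table made up 11.04% of them. Of all 21924 annotated protein-coding genes, 10.3% were in the table. Both shares are of annotated genes, expressed in oocytes or not, so they do not compare rates among expressed genes. The Rad family gave 3 of 20 members (Rad51ap2, Rad51c and Rad51d). The synaptonemal complex genes gave 2 of 9 (Sycp1 and Syce2), the polymerases 2 of 20 (Pola1 and Polk), the Mcm genes 2 of 12 (Mcm2 and Mcmbp), the topoisomerases 2 of 6 (Top2b and Top3b) and the Xrcc genes 2 of 6 (Xrcc4 and Xrcc5). Fancb, Lig4, Mei4, Rfc5 and Stag2 were the only listed members of their families. No gene was listed for the mismatch repair factors Msh and Mlh, for Brca, Ercc, Hormad, Orc, Parp, Rpa and Smc, or for the piRNA pathway names Piwil and Tdrd. Fancb, Pola1 and Stag2, 3 of the 18 genes, lie on the X chromosome, which holds 4.78% of the listed protein-coding genes.

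Promoter windows from RefSeq (build GRCm38.p6), reaching from 250 bases before to 50 bases after an annotated start, were matched to 16 of the 18 genes and gave 20 windows, since some genes have more than 1 start. Rad51d and Stag2 had no window. Printed here are the windows of the synaptonemal complex pair, of which Sycp1 differed most among the 18 genes, and of the pair with the largest opposite differences among the recombination genes, Rad51c and Rad51ap2. Capitals mark the searched letters of an E-box (CACGTG) or of an E2F-type site (TTCCCGC, or GCGGGAA where it lies on the other strand).
Sycp1, chr3:102936051-102936350, minus strand: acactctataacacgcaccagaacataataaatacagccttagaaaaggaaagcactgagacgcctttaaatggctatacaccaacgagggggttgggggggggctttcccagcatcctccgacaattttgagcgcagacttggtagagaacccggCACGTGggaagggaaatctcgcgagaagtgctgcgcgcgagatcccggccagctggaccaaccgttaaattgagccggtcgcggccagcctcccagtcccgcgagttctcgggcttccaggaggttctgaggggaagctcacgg
Syce2, the second of 2 starts, chr8:84872008-84872307, plus strand: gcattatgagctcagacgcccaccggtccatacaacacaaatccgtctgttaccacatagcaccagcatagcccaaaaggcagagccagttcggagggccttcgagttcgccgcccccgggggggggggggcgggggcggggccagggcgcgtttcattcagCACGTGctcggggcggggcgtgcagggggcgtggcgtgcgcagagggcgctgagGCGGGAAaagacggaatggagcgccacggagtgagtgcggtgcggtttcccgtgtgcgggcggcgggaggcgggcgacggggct
Rad51c, the second of 2 starts, chr11:87404905-87405204, minus strand: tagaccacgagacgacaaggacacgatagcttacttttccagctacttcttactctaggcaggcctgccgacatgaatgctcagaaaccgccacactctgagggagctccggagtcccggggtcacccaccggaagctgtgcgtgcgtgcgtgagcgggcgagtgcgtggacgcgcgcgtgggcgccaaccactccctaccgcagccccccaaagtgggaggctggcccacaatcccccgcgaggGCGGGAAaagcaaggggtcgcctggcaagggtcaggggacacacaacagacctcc
Rad51ap2, chr12:11455805-11456104, plus strand: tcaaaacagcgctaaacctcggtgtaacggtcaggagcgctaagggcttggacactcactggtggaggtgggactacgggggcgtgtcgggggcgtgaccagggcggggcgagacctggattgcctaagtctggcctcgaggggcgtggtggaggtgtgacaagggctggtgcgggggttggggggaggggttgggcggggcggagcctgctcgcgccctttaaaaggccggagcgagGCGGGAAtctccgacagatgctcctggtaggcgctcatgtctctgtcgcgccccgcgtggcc

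Both printed synaptonemal complex windows hold an E-box, at position -94 from the start in Sycp1 and at -88 in Syce2. The window of the first Syce2 start, not printed, holds none of the searched motifs. The printed windows of Syce2, Rad51c and Rad51ap2 hold the E2F-type letters on the minus strand of the window, at positions -34, -5 and -12. Rad51c was lower and Rad51ap2 higher in Ehmt2GKO oocytes, so these letters were present in windows of genes that differed in opposite directions. Over the 20 windows, the E2F-type letters stood in 7 (those of Fancb, Mcmbp, Pola1, Rad51ap2, Rad51c, Syce2 and Xrcc4), against 8.10% of the 2271 windows of tested genes and 4.60% of all 32841 RefSeq windows. The E-box stood in 3 of the 20 (Syce2, Sycp1 and Xrcc5), against 9.60% and 7.15%. The cyclic AMP response element TGACGTCA was found in 1 window (the first start of Rad51c), against 2.91% and 1.79%, and the NRF1 core GCGCATGC in 2 (Lig4 and Xrcc5), against 5.02% and 2.71%. In Lig4 its matches on the 2 strands overlap. The CTCF core AGGGGGCGC was in none of the 20, against 1.81% of windows of tested genes and 1.25% of all. All motifs were searched on both strands, and a match is a description of letters, not a binding site.

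The windows of the 18 genes were rich in G and C. Their median GC content was 62.8%, against 58.7% for tested genes and 52.7% for all windows, and their median number of CpG dinucleotides was 24.5, against 18 and 7. The 7 windows of the 5 higher genes with a window had a median GC content of 67.0% and a median of 26 CpG. The 13 windows of the 11 lower genes with a window had 60.7% and 21. The ranges overlapped almost fully, from 44.3 to 69.7% GC in windows of higher genes and from 45.7 to 69.3% in those of lower genes. The difference between them was not tested. Genes with more than 1 start count more than once in these medians.

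Counts were normalized to a common library size, and each gene was tested with the quasi-likelihood test of edgeR. A gene was said to have risen or fallen only where its fold change exceeded 2 and its adjusted p was below 0.01. Other differences are given as higher or lower values. All 18 genes passed the filter on low counts, as did 2516 of the 2615. Of the 18, only Sycp1 passed this test, having fallen, while 897 of the 2516 genes tested passed it, a share of 35.7% (18.7% risen and 16.9% fallen). Among the 1698 tested genes whose mean normalized counts lay within the range of the 18 (104 to 4233), 18.9% passed. Without the fold limit, 17 of the 18 had an adjusted p below 0.01, against 98.8% of all tested genes, and Xrcc5 missed it. The control and Ehmt2GKO libraries did not overlap in any of the 18, against 98.3% of all tested genes. These last counts are near what the table gives for any gene. An exact 2-sided permutation test of 3 against 3 libraries gave p = 0.10 for each of the 18, the smallest value it can give.

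The differences were small and mostly downward. In Ehmt2GKO oocytes, 6 of the 18 genes were higher and 12 lower, which is 33.33% higher, against 49.44% of all tested genes and 46.88% of those in the same range of counts. Their median log2 fold change was -0.43, against -0.32 for all tested genes and -0.36 for those in the same range. No tested gene had a size below 0.26, so with nearly even shares the median of all tested genes lies at the edge of an empty band. It is not a typical change. Without regard to direction the median was 0.57, against 0.76 and 0.65. The values ran from 0.31 for Mcmbp to 1.19 for Sycp1 in size. Their median normalized count of 928 was above that of all tested genes, 358.

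**Figure D1:**
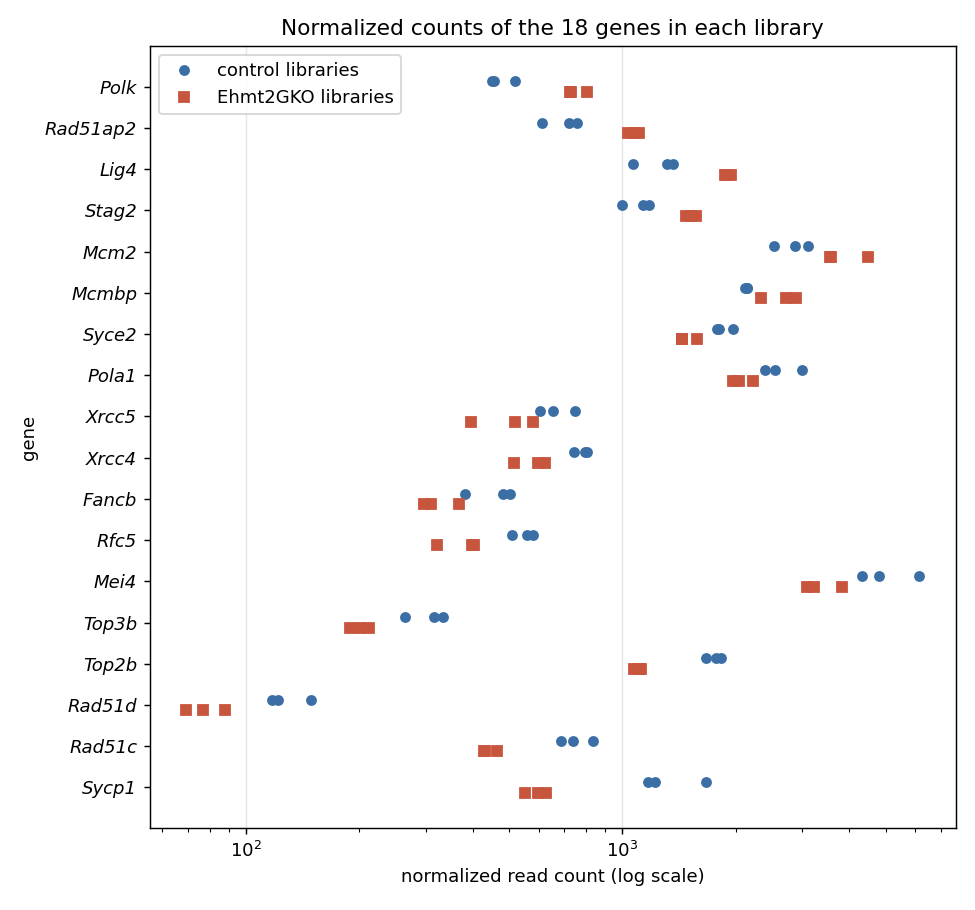
Normalized read counts (horizontal log axis) of the 18 genes, with a circle for each of 3 control libraries and a square for each of 3 Ehmt2GKO libraries. The groups do not overlap in any gene, as in 98.3% of all tested genes of this selected table. The narrowest gap is that of Fancb, 12.1 normalized counts.

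**Figure D2:**
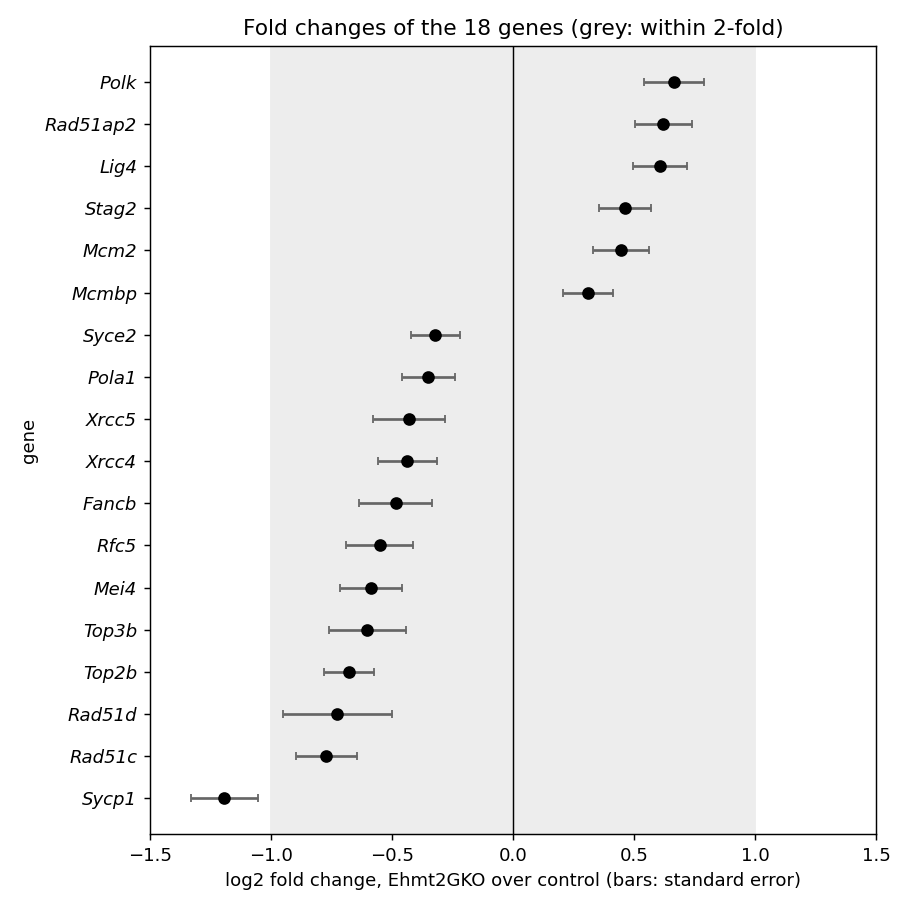
Log2 fold change of Ehmt2GKO over control (horizontal axis) for the 18 genes, with bars of 1 standard error from the edgeR fit. Only Sycp1, at -1.19, lies outside the grey band of changes within 2-fold, and 6 genes lie to the right of 0.

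Values per library are given as read counts in the order of replicates 1, 2 and 6 (control) and 3, 4 and 5 (Ehmt2GKO). Means are of normalized counts ± SD (n = 3 libraries per group), and log2 fold changes are Ehmt2GKO over control ± SE. Coordinates are those of GRCm38, the build of the annotation used here (GENCODE vM21).

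Among the synaptonemal complex genes, Sycp1 fell and Syce2 was lower by less. Sycp1 (ENSMUSG00000027855, chr3:102818499-102936100, minus strand) encodes the transverse filament protein that bridges the paired chromosome axes. It had 1138, 1214 and 1707 reads in the control libraries and 565, 613 and 600 in the Ehmt2GKO libraries. Every Ehmt2GKO library was below every control library, and control replicate 6 stood above the other controls. The mean normalized count was 1353 ± 277 in control and 592 ± 38.5 in Ehmt2GKO oocytes, 43.7% of control, with a log2 fold change of -1.19 ± 0.14 (edgeR adjusted p = 1.72e-06). Without control replicate 6 the log2 fold change was -1.02, and the gene still passed. A test against a 2-fold change in place of no change ended the call (edgeR glmTreat adjusted p = 0.124). Syce2 (ENSMUSG00000003824, chr8:84872111-84888221, plus strand), a central element protein that lets the complex extend along the chromosomes, had 1760, 1779 and 2006 reads in the control libraries and 1475, 1408 and 1578 in the Ehmt2GKO libraries. Its normalized count was 1852 ± 97.8 in control and 1483 ± 78.6 in Ehmt2GKO oocytes, or 80.1%, a difference of -0.32 ± 0.10 on the log2 scale (edgeR adjusted p = 0.00629).

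Mei4 (ENSMUSG00000043289, chr9:81863670-82206007, plus strand), which is needed for the double-strand breaks that start recombination, was lower. The gene had 4664, 4305 and 6261 reads in the control libraries and 3309, 3755 and 3106 in the Ehmt2GKO libraries, with control replicate 6 again the highest library. The normalized count was 5079.6 ± 940.3 in control against 3386 ± 396 in Ehmt2GKO oocytes, 66.7% of control. Its log2 fold change was -0.59 ± 0.13 (edgeR adjusted p = 6.15e-04) and was -0.43 without control replicate 6.

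Of the 4 genes of homologous recombination and Fanconi anaemia, 1 was higher and 3 were lower. None passed the 2-fold limit, while 35.7% of all tested genes passed the test in either direction. Rad51c (ENSMUSG00000007646, chr11:87376645-87404954, minus strand) and Rad51d (ENSMUSG00000018841, chr11:82876434-82890614, minus strand) encode subunits of 1 complex that acts in the repair of breaks by homologous recombination. Rad51c had 812, 737 and 701 reads in the control libraries and 443, 454 and 430 in the Ehmt2GKO libraries. Its normalized count was 753 ± 75.0 in control and 441 ± 19.6 in Ehmt2GKO oocytes, 58.6% of control, with a log2 fold change of -0.77 ± 0.13 (edgeR adjusted p = 5.77e-05). Rad51d had the fewest reads of the 18 genes, 145, 117 and 124 reads in the control libraries and 79, 68 and 88 in the Ehmt2GKO libraries. At 60.4% of control, its log2 fold change was -0.73 ± 0.22 (edgeR adjusted p = 0.00547), with the largest standard error of the 18. Both subunits were thus lower by similar proportions.

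Rad51ap2 (ENSMUSG00000086022, chr12:11456079-11462928, plus strand) encodes a recombination protein of germ cells. The gene had 739, 721 and 623 reads in the control libraries and 1104, 1082 and 1037 in the Ehmt2GKO libraries, so it was higher in every Ehmt2GKO library. The normalized count was 697 ± 77.8 in control and 1072 ± 35.8 in Ehmt2GKO oocytes, 154% of control, and the log2 fold change 0.62 ± 0.12 (edgeR adjusted p = 2.13e-04). Fancb (ENSMUSG00000047757, chrX:164980592-164997272, plus strand), a subunit of the Fanconi anaemia core complex that handles DNA crosslinks, had 371, 479 and 515 reads in the control libraries and 379, 303 and 298 in the Ehmt2GKO libraries. As a raw count, 379 in Ehmt2GKO replicate 3 exceeded 371 in control replicate 1, and the groups separated only after normalization, by 12.1 normalized counts. Its log2 fold change was -0.48 ± 0.15 (edgeR adjusted p = 0.00581).

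The end-joining genes Xrcc4 and Xrcc5 were lower, while Lig4, described below, was higher. Xrcc4 (ENSMUSG00000021615, chr13:89774027-90089608, minus strand) encodes the partner that stabilizes DNA ligase IV, and had 776, 742 and 821 reads in the control libraries and 638, 584 and 516 in the Ehmt2GKO libraries. Xrcc5 (ENSMUSG00000026187, chr1:72307421-72394952, plus strand) encodes Ku80, which with Ku70 forms the ring that binds broken ends, and had 728, 603 and 668 reads in the control libraries and 593, 506 and 396 in the Ehmt2GKO libraries. The Ehmt2GKO libraries of Xrcc5 were spread most, with a coefficient of variation of 18.7%, and the gap to the controls was 27.2 normalized counts. The log2 fold changes were -0.44 ± 0.12 for Xrcc4 (edgeR adjusted p = 0.00308) and -0.43 ± 0.15 for Xrcc5 (edgeR adjusted p = 0.0101).

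The group of polymerases, clamp loader and ligase went both ways. Pola1 and Rfc5 were lower. Pola1 (ENSMUSG00000006678, chrX:93304767-93632155, minus strand), the catalytic subunit of the polymerase that lays down primers, had 2919, 2532 and 2442 reads in the control libraries and 2014, 2172 and 2048 in the Ehmt2GKO libraries. Rfc5 (ENSMUSG00000029363, chr5:117378103-117389047, minus strand), a small subunit of the clamp loader, had 542, 577 and 520 reads in the control libraries and 413, 314 and 400 in the Ehmt2GKO libraries. Pola1 was at 78.5% of its control level, with a log2 fold change of -0.35 ± 0.11 (edgeR adjusted p = 0.00577), and Rfc5 at 68.2%, with -0.55 ± 0.14 (edgeR adjusted p = 0.00154).

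The repair enzymes Polk and Lig4 were higher. Polk (ENSMUSG00000021668, chr13:96480690-96542579, minus strand), a polymerase that copies past damaged bases, had 445, 449 and 530 reads in the control libraries and 745, 716 and 807 in the Ehmt2GKO libraries. At 159% of control it showed the largest upward difference of the 18 genes, a log2 fold change of 0.66 ± 0.12 (edgeR adjusted p = 1.80e-04). Lig4 (ENSMUSG00000049717, chr8:9969049-9977686, minus strand), the ligase that seals broken ends in end joining, had 1281, 1362 and 1090 reads in the control libraries and 1934, 1836 and 1953 in the Ehmt2GKO libraries. Every Ehmt2GKO library was above every control library, and the mean normalized count was 1249.7 ± 159.95 in control and 1902 ± 39.4 in Ehmt2GKO oocytes, 152% of control. Its log2 fold change was 0.61 ± 0.11 (edgeR adjusted p = 1.64e-04), opposite in sign to that of its partner Xrcc4.

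Both licensing genes were higher. Mcm2 (ENSMUSG00000002870, chr6:88883474-88898780, minus strand), a subunit of the replicative helicase, had 2465, 3095 and 2943 reads in the control libraries and 3646, 3501 and 4494 in the Ehmt2GKO libraries. Mcmbp (ENSMUSG00000048170, chr7:128696441-128740495, minus strand), which binds MCM proteins outside the loaded helicase, had 2080, 2137 and 2160 reads in the control libraries and 2960, 2282 and 2722 in the Ehmt2GKO libraries. The Mcmbp controls lay very close together, with a coefficient of variation of 0.692% in normalized counts, while its Ehmt2GKO libraries varied by 10.7%. The log2 fold change was 0.45 ± 0.12 for Mcm2 (edgeR adjusted p = 0.00192) and 0.31 ± 0.10 for Mcmbp (edgeR adjusted p = 0.00860), the smallest of the 18.

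Both topoisomerase genes were lower and the cohesin gene was higher. Top2b (ENSMUSG00000017485, chr14:16365179-16435462, plus strand), which passes 1 duplex through another, had 1784, 1664 and 1811 reads in the control libraries and 1151, 1080 and 1076 in the Ehmt2GKO libraries. The libraries of a group lay close together, with coefficients of variation of 4.73% in control and 2.20% in Ehmt2GKO oocytes. Its normalized count was 1758 ± 83.2 in control and 1099 ± 24.2 in Ehmt2GKO oocytes, and its log2 fold change was -0.68 ± 0.10 (edgeR adjusted p = 2.48e-05). Top3b (ENSMUSG00000022779, chr16:16870736-16892990, plus strand), which acts on single strands of DNA and RNA, had 325, 315 and 270 reads in the control libraries and 218, 185 and 201 in the Ehmt2GKO libraries and a log2 fold change of -0.60 ± 0.16 (edgeR adjusted p = 0.00224). Stag2 (ENSMUSG00000025862, chrX:42149317-42277185, plus strand), a subunit of the cohesin ring of mitotic cells, had 1107, 996 and 1199 reads in the control libraries and 1562, 1535 and 1478 in the Ehmt2GKO libraries. At 138% of control, its log2 fold change was 0.46 ± 0.11 (edgeR adjusted p = 8.85e-04).

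None of the 18 genes had a near-identical copy in the annotated transcripts (a minimum of 95% identity across 50% of the length). The exons of 5 overlap those of a gene on the opposite strand. The shared length was 1793 nucleotides for Top2b (with Rarb), 499 for Rfc5 (Wsb2), 112 for Xrcc4 (Tmem167), 108 for Top3b (Vpreb1) and 28 for Stag2 (Gm37564). The library kit does not mark strand, so reads from these stretches cannot be told apart, and none of the overlapping genes was among those analysed.

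**Figure D3:**
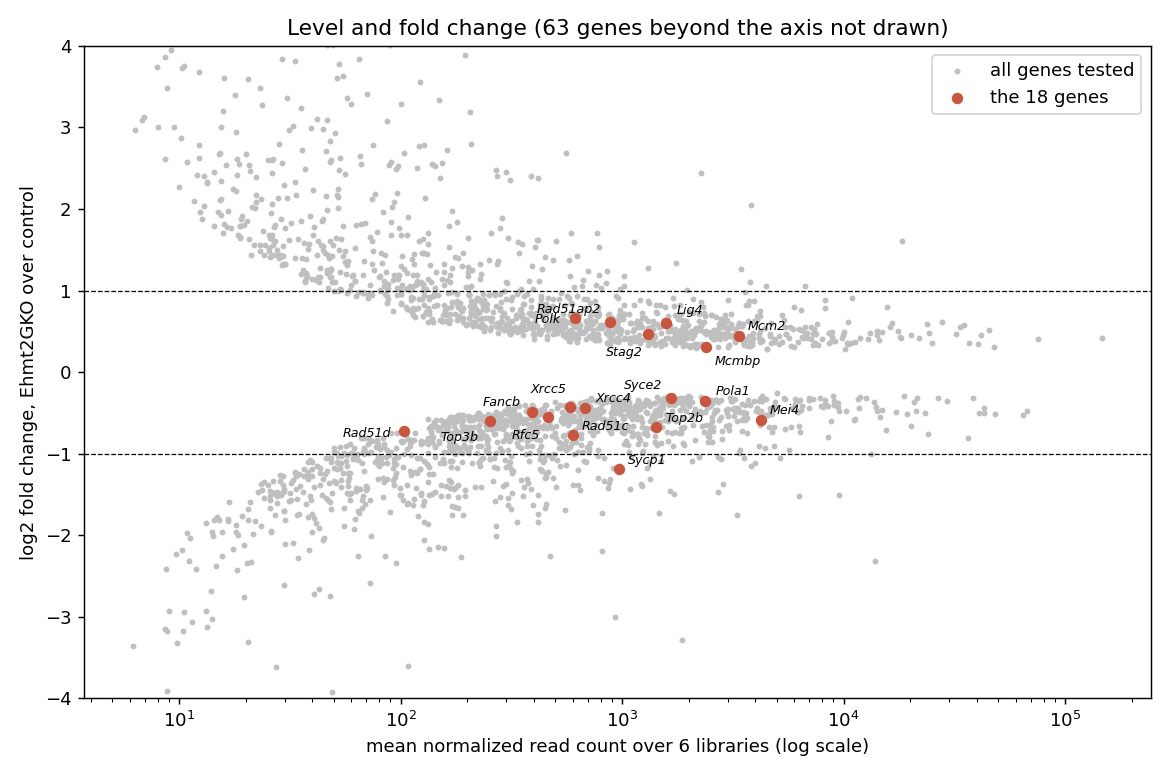
Log2 fold change of Ehmt2GKO over control (vertical axis) against the mean normalized count over 6 libraries (horizontal log axis) for all 2516 genes tested, with the 18 genes named. Dashed lines mark a 2-fold change, 63 genes beyond the vertical axis are not drawn, and the empty band around 0 shows that the table lists only selected genes.

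Levels were compared between genes as normalized counts per kilobase of all annotated exons of a gene. This length can far exceed that of the longest transcript, as for Top3b (8400 against 3511 nucleotides) and Mcm2 (6956 against 3494). The order below depends on that choice. In control oocytes Mei4 (1233) and Syce2 (941) stood apart above the rest. Mcmbp (417), Mcm2 (408), Sycp1 (380), Pola1 (299.9), Xrcc5 (262), Lig4 (240.2) and Rad51ap2 (219.7) followed, with neighbours in this order that overlapped between libraries. Next came Xrcc4 (186), Rad51c (172), Fancb (153), Stag2 (133), Top2b (120.3) and Rfc5 (117), again with overlapping neighbours, then Polk (85.6), and last Top3b (36.3) and Rad51d (34.8), which overlapped. By this measure the most abundant transcripts were those of 2 meiotic genes, and the least abundant those of Rad51d and a topoisomerase.

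In Ehmt2GKO oocytes, Mei4 (822) and Syce2 (754) were still the highest and now overlapped, and Top3b (23.9) and Rad51d (21.02) were still the lowest. Sycp1 (166) moved from rank 5 to rank 10 of 18, below Lig4 (366), Rad51ap2 (338), Pola1 (235), Xrcc5 (194) and Stag2 (184). Lig4 moved from rank 8 to 5 and Polk (136) from 16 to 12.

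Ratios of read counts within a library do not depend on how libraries are scaled. The pairs below were chosen after their values were seen, so no p-value is given for them. Of 7 ratios computed, 5 pair genes of a complex or a step. The other two, Polk to Pola1 and Stag2 to Sycp1, had means of 0.182 and 0.832 in control and 0.365 and 2.58 in Ehmt2GKO oocytes. The Lig4 to Xrcc4 ratio was 1.65, 1.84 and 1.33 in the control libraries and 3.03, 3.14 and 3.78 in the Ehmt2GKO libraries. Its mean went from 1.60 ± 0.257 to 3.32 ± 0.406 (SD, n = 3), or 2.07-fold. Lig4 was higher and Xrcc4 lower in every Ehmt2GKO library, so the separation of this ratio follows from the values given above and adds no further result. Transcript length is not taken out of these ratios, so only their change between groups is compared. Rad51ap2 to Rad51c was 0.910, 0.978 and 0.889 against 2.49, 2.38 and 2.41, or 2.62-fold. This ratio also sets a higher gene against a lower one, so its separation was fixed in the same way. Sycp1 to Syce2 was 0.647, 0.682 and 0.851 against 0.383, 0.435 and 0.380. The libraries overlapped for Rad51c to Rad51d, 5.60, 6.30 and 5.65 against 5.61, 6.68 and 4.89. They also overlapped for Mcm2 to Mcmbp, with means of 1.33 ± 0.134 and 1.47 ± 0.216. For Rad51c to Rad51d the means, 5.85 ± 0.389 and 5.72 ± 0.901, differed by less than the SD of either group. For Mcm2 to Mcmbp they differed by slightly more than the control SD and less than the Ehmt2GKO SD.

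**Figure D4:**
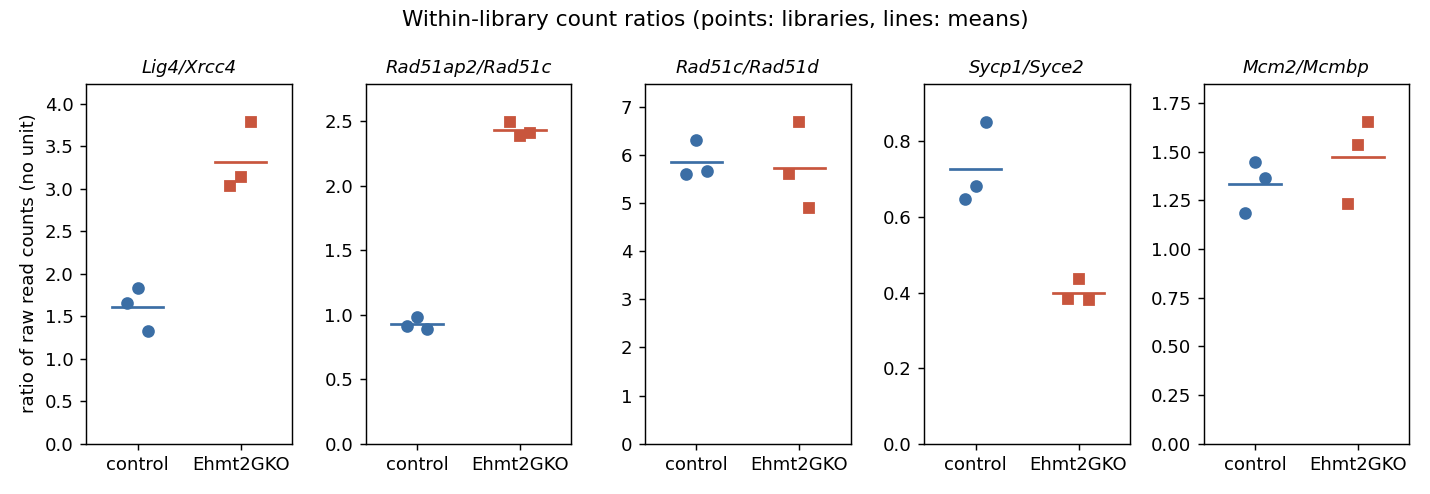
Ratios of raw read counts of 5 gene pairs (vertical axes from 0, no unit) in 3 control libraries (circles) and 3 Ehmt2GKO libraries (squares), with lines at the means. The groups are apart for Lig4/Xrcc4, Rad51ap2/Rad51c and Sycp1/Syce2 and overlap for Rad51c/Rad51d and Mcm2/Mcmbp. Lig4/Xrcc4 and Rad51ap2/Rad51c set a gene that was higher in every Ehmt2GKO library over a lower one, so they had to be apart.

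Other genes of these pathways whose names lie outside the rule were read from 6 lists, which were written with earlier results of these data known. Of 28 initiation and fork genes, 7 were listed and all 7 were higher, against 49.44% of all tested genes. Their median log2 fold change was 0.57. None passed the 2-fold limit, while 35.7% of all tested genes passed the test in either direction. They were Pcna (0.67), the sliding clamp, Wdhd1 (0.63), Cdc6 (0.59), the helicase loader, Dna2 (0.57), Gmnn (0.50), the inhibitor of licensing, Gins3 (0.46) and Dbf4 (0.45), the activator of the CDC7 kinase. Mean normalized counts were 764 ± 186 in control and 1212 ± 50.8 in Ehmt2GKO oocytes for Pcna, and 16982 ± 1106 and 23232 ± 1387 for Dbf4. These genes and the licensing genes Mcm2 and Mcmbp were all higher, whereas the fork genes Pola1 and Rfc5 were lower.

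Of 31 base and nucleotide excision genes, 5 were listed and all 5 were lower, of which 2 fell. Of all tested genes 35.7% passed the test in either direction and 16.9% fell. With only 5 genes listed, 2 falls were not tested against these shares. Neil3, a DNA glycosylase that removes oxidized bases, had 22677, 22435 and 23980 reads in the control libraries and 3650, 4118 and 6193 in the Ehmt2GKO libraries. Its log2 fold change was -2.31 ± 0.16 (edgeR adjusted p = 4.88e-09). Cetn2, a centrin of centrioles that is also part of the XPC damage sensor, had 931, 893 and 690 against 286, 236 and 261 reads and a log2 fold change of -1.70 ± 0.15 (edgeR adjusted p = 9.82e-08). The others, Mutyh, Gtf2h2 and Tdp2, had log2 fold changes of -0.91, -0.75 and -0.31.

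Of 53 further recombination genes, 5 were listed, 2 higher and 3 lower, and 2 of the lower ones fell. The shares over all tested genes were again 35.7% passing in either direction and 16.9% falling, and no test against them was run. Tex15, a germ-cell gene needed for recombination and for transposon silencing in males, had 3726, 3047 and 3334 reads in the control and 359, 362 and 324 in the Ehmt2GKO libraries. Its log2 fold change was -3.28 ± 0.12 (edgeR adjusted p = 1.28e-12). Mnd1, whose protein helps meiotic strand exchange, had 159, 151 and 201 against 92, 48 and 52 reads and a log2 fold change of -1.42 ± 0.25 (edgeR adjusted p = 0.000116). Tex11 (-0.86), Ccnb1ip1 (0.62) and Tex12 (0.35) stayed within 2-fold. Tex15 and Mnd1, like Sycp1, were thus among the recombination transcripts that fell, and Tex15 changed the most.

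Of 35 damage signalling genes, 6 were listed. Trp53 (0.56), Etaa1 (0.46) and Rev1 (0.44) were higher, and Hus1 (-0.50), Trp63 (-0.47) and Brcc3 (-0.45) lower. Of 24 cohesin and condensin genes, 4 were listed, with Esco2 (0.41) and Espl1 (0.39), which encodes separase, higher and Ncapg (-0.95) and Nsmce2 (-0.75) lower. None of these 10 passed the 2-fold limit, while 35.7% of all tested genes passed the test in either direction. No test against that share was run. None of 17 piRNA pathway genes was listed.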

How the data were processed

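RNA of 3 control and 3 Ehmt2GKO oocyte libraries was analysed, and methylation (RRBS) samples were assigned to groups but not analysed here. The authors deposited whole-number read counts per gene, with no normalization, made from libraries of polyadenylated RNA (SMART-Seq v4 kit). Their processing notes list HISAT2, DESeq2 and GRCm38. The counting program, its annotation and its handling of strand and of shared reads are not given in the sources used here. The deposited table also holds the authors' own fold ratios, log2 values and p-values, which were not used except to read that each of the 2615 adjusted p-values is below 0.05.

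The count model was that of edgeR 4.0.16, run in R 4.3.3 (a filterByExpr minimum of 10, TMM scaling, quasi-likelihood F-test, Benjamini-Hochberg adjustment over the 2516 genes kept). The calling thresholds, 2-fold and 0.01, follow the study's, applied here to adjusted p because the study does not say which P it used. Because the table was chosen on this contrast, TMM and the adjustment ran on selected genes. Normalized counts are counts divided by the TMM-scaled library size relative to its mean. The fit was also run on simulated data in which most genes did not differ. That setting is unlike this table, so it does not test the fit on selected genes. Alternatives used DESeq2 1.42.0 and limma 3.58.1. Exact permutation tests used scipy 1.17.1, near-identical copies were sought with blastn 2.17.0, and figures were drawn with matplotlib 3.10.9. Of the table's IDs, 2613 were found in the annotation.

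The members and lists were chosen with earlier results of these data known. Beyond the 18 members, the genes named were the called genes of the pathway lists, and the uncalled listed genes of those lists and the marker genes were named after their values were seen.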

Additional observations from a re-analysis of the deposited data

How the results depend on the processing

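Across 15 alternatives, each of the 18 genes kept its direction (6 higher, 12 lower), and the median log2 fold change of the 18 ran from -0.53 to -0.34. Among 270 values of single genes, 252 stayed on their side of the test, 17 passed only once the fold limit was dropped, and Sycp1 was lost with glmTreat. The number of all genes called was 791 to 916 when 1 library was left out, against 897, and of the 18 genes 12 to 15 then had an adjusted p below 0.01, against 17. That number was 12 with DESeq2 and with its median-ratio factors, which shifted the log2 fold changes of all genes by a median of 0.09. Fancb, Pola1, Rad51d, Syce2, Xrcc4 and Xrcc5 were then above 0.01.

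With an adjusted p below 0.05 and no fold limit, 2516 genes (1244 higher, 1272 lower), all 18 members and 27 genes of the pathway lists were called. With glmTreat against 2-fold, 260 genes (185 higher, 75 lower) and 0 of the 18 were called, fewer by construction. Under a filter of 10 or more counts in each library, which kept 2238 of the 2516 genes, 297 higher genes were called, against 471. Lower genes numbered 314, against 426. The reason for the drop was not tested. Chosen after seeing the data, an adjustment over all 55450 annotated genes called 546 genes (296 higher, 250 lower) and left 6 of the 18 with an adjusted p below 0.01 (Sycp1, Top2b, Rad51c, Lig4, Polk and Rad51ap2). No paired analysis was possible because no replicate number occurs in both groups.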
